A study of Mus musculus with 3 samples.

Results

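HIF1α ChIP-seq peaks that lie close to one another were described in embryonic mouse hearts. Of the 17288 peaks that the authors' merged list places on chromosomes 1 to 19, X and Y, 1033 (5.98%; 95% interval 5.63 to 6.34%) have a centre within 1 kb of the centre of another peak on the same chromosome. They form 507 clusters, which were chosen by the positions of the peaks themselves, and the other 16255 peaks are called isolated here. The whole list holds 17289 peaks. Because the same calls set the position, score and number of calls of each peak, these values are given as a description with no test.

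The study profiled loci bound by HIF1α in hearts of wild-type Black-Swiss embryos at E12.5, in mid-gestation. It has 3 libraries, namely 2 replicate HIF1α pulldowns and 1 input for which no antibody is listed. Chromatin was fixed in 1.5% formaldehyde for 10 minutes, sheared to about 200 bp and pulled down overnight with a rabbit anti-HIF1α antibody (4 μg), and libraries were made from 10 ng of DNA. Whether the 2 pulldowns used different batches of hearts is not stated, and no perturbed or HIF1α-deficient sample is among the 3. The score is the authors' own whole number, 2 at the lowest, and what it is relative to is not stated. Both pulldowns were called against the same input. Each peak also carries a number of merged calls, 1 or 2. Single calls are not assigned to a pulldown, which leaves every value without a replicate error, and the read depth is unknown. Intervals (95%, exact Clopper-Pearson) were computed over peaks, clusters or genes. They cover counting error only, and peaks of a cluster share their locus.

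HIF1α is one subunit of the hypoxia-inducible factor, and oxygen controls its stability. When oxygen is low it escapes hydroxylation and degradation through VHL, pairs with ARNT and binds hypoxia response elements, whose core is the short sequence ACGTG or GCGTG. In the embryonic heart this factor is known for its action on glycolytic genes and on the wider hypoxia response.

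The bases under clustered peaks are shown first, for clusters whose results are given further on. They were read from RefSeq promoter windows of GRCm38.p6, the build also called mm10, on the strand of the gene and 5′ to 3′. Capitals mark every match to ACGTG or GCGTG on either strand (CACGT and CACGC when read on the other one). CACGTG reads the same on both strands and therefore counts as 2 matches. A match is a description of the letters and not evidence of a bound site. The 5 longer sequences below are whole peaks, or the part of a peak upstream of the start site, at Cited2, Sap30, Morf4l1 and at 1600020E01Rik, a non-coding gene beside Pcbp1 that has 2 of the 3 peaks of its cluster in 1 window.

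Cited2, plus strand, chr10:17723071-17723178, score 12: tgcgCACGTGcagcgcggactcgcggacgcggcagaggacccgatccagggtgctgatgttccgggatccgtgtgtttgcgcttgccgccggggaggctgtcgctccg
Sap30, minus strand, chr8:57487925-57488033, score 10: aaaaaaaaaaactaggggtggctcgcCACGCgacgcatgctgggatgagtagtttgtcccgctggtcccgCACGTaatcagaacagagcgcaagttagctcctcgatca
Morf4l1, minus strand, chr9:90114821-90114890, score 5: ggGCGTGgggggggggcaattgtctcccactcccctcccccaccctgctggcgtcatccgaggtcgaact
1600020E01Rik, plus strand, chr6:86527122-86527222, score 8: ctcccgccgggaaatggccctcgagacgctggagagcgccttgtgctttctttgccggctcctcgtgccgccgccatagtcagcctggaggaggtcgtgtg
1600020E01Rik, plus strand, chr6:86527271-86527371, score 6: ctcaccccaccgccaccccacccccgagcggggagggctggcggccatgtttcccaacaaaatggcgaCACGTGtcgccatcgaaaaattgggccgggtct

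The Cited2 peak holds CACGTG once and the Sap30 peak holds 2 separate matches. The Morf4l1 stretch holds 1 match. Of the neighbouring peaks at 1600020E01Rik, the higher scoring one holds no match and the lower scoring one holds CACGTG. At 4 more clusters a stretch of 30 bases around each match is shown, since their highest peaks overlap or sit at the start of the gene.

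Gapdh, minus strand, chr6:125165724-125165753, score 42: gctactcgcggctttacgggtgCACGTagc
Mif, minus strand, chr10:75860231-75860260, score 14: actgagctgggtCACGTagctcaggtccct
Sirt6, minus strand, chr10:81627655-81627684, score 9: gtttttcacctcCACGTacccaccccaccc
Sirt6, minus strand, chr10:81627632-81627661, score 9: cccaccctcaggCACGTatctagggaaggc
Agbl5, plus strand, chr5:30888841-30888870, score 8: aggtacctgccaACGTGcacggaaccctgc

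Each of these 5 stretches holds 1 match, and the pair at Sirt6 lies under 1 peak. Matches were not found in every stretch that could be read. The parts of the Vhl, Gbe1, Bmt2 and Atxn7l2 peaks that lie inside a promoter window hold 0 matches, as does the whole 2-call Bmpr1a peak of score 6. At Gbe1 and Bmt2 these parts are 77 and 33 bases of the peak of score 7. At Atxn7l2 and Vhl they are 64 and 93 bases of a peak of score 5. The other peaks of these clusters, including those of score 20 at Gbe1 and 14 at Bmt2, lie outside the windows and were not read.

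Most clusters were pairs. There were 489 clusters of 2 peaks (96.5%), 17 of 3 peaks (3.35%) and 1 of 4 peaks. Neighbouring centres within a cluster lay at most 997 bp apart with a median of 400 bp (526 distances; quartiles 243 and 632 bp). No spacing was smaller than the width of a 1-call peak, and peaks of 2 calls are the merged ones. Of the 526 distances, 328 were at most 500 bp and 105 were at most 200 bp, about the length of a sheared fragment. Whether the peaks of such a close pair came from the same pulldown or from 1 each cannot be told apart in this list. Whole clusters spanned 202 to 1789 bp, with a median of 504 bp.

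The spacings thinned out before the 1 kb limit. There were 17 neighbouring pairs at 900 to 1000 bp and 23 at 1000 to 1100 bp. The pairs just inside the limit had a median score of 2 and a highest score of 18, and 5 of them held a peak of 2 calls. The pairs just outside had a median score of 2.5 and a highest score of 12, and 7 held a peak of 2 calls. In the next kilobase as a whole, from 1000 to 2000 bp, 159 neighbouring pairs were found. Isolated peaks lay at a median of 46732 bp from the nearest other centre.

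**Figure D1:**
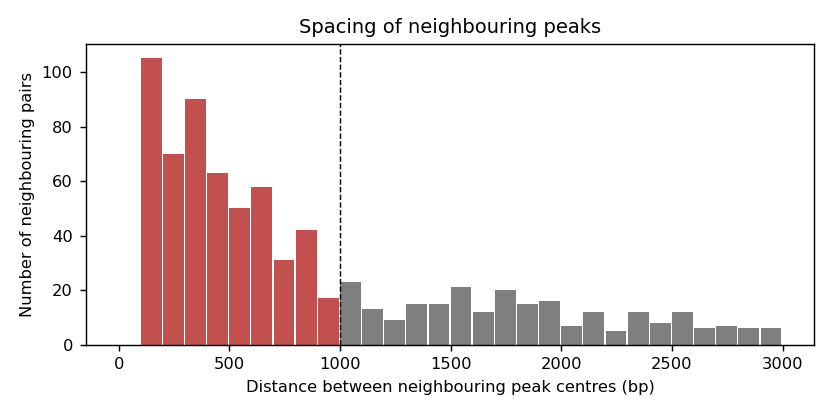
Histogram of the distance between neighbouring peak centres in bins of 100 bp, with the number of pairs on the vertical axis. Red bars left of the dashed line at 1000 bp are the 526 distances within clusters, and grey bars are neighbouring pairs farther apart, of which 159 lie between 1000 and 2000 bp.

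By number of calls, 365 clusters (72.0%) were pairs of 1-call peaks, 100 (19.7%) paired a peak of 1 call with a peak of 2 calls, and 24 (4.73%) were pairs of 2-call peaks. The 18 larger clusters included 9 made of 1-call peaks alone and 1 made of 2-call peaks alone, at Gapdh. Median spacing was 344 bp in pairs of 1-call peaks, 472 bp in mixed pairs and 633 bp in pairs of 2-call peaks. The median of the higher score was 3, 4 and 7 in the same order.

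Scores within a pair were mostly close. In pairs of 1-call peaks the scores were equal in 229 of 365 and differed by at most 1 in 343, and both peaks were at the lowest score, 2, in 122. In mixed pairs the 2-call peak had the higher score in 49 of 100, the scores were equal in 36, and the 1-call peak was higher in 15. Equal scores were rarer in pairs of 2-call peaks: 3 of 24 were equal, and in 7 of 24 the higher score was at least 2 times the lower. That ratio was reached in 8 of the 365 pairs of 1-call peaks. Scores are whole numbers from 2 upward, and the median higher score was 3 in pairs of 1-call peaks and 7 in pairs of 2-call peaks. Low scores leave little room for unequal values, so this contrast cannot be told apart from the score level.

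Clustered peaks scored somewhat higher than isolated peaks at the middle of the range, while the highest score of all belonged to an isolated peak. The median score was 3 in clustered and 2 in isolated peaks, and the upper quartile was 4 against 3. The highest score was 55 against 3315, but the isolated group is far larger, and a maximum tends to grow with group size. Among 1-call peaks the medians were 3 and 2, while among 2-call peaks the median was 4 in both groups. A score of at least 4 was held by 331 clustered peaks (32.0%; 29.2 to 35.0%) and by 14.4% of isolated peaks (13.8 to 14.9%). The lowest score, 2, was held by 34.3% of clustered and 57.4% of isolated peaks. A score of at least 10 was rare in both, at 18 clustered peaks (1.74%; 1.04 to 2.74%) and 188 isolated peaks (1.16%; 0.998 to 1.33%), with intervals that overlap. Peaks of 2 calls made up 160 of the clustered peaks (15.5%; 13.3 to 17.8%) and 1829 of the isolated peaks (11.3%; 10.8 to 11.8%). This gap depended on the linking distance and on low scores. With a limit of 500 bp the shares were 11.7% clustered and 11.5% isolated, and among peaks of score 3 or more they were 23.0% clustered and 24.8% isolated.

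The share of peaks in clusters was larger at higher scores among peaks of 1 call and showed no such order among peaks of 2 calls. For 1-call peaks it was 3.57% (342 of 9570; 3.21 to 3.97%) at score 2 and 7.07% (316 of 4472) at score 3. It reached 16.4% (186 of 1133; 14.3 to 18.7%) at scores 4 to 5 and 22.6% (26 of 115; 15.3 to 31.4%) at scores 6 to 9. At 10 or more it was 33.3%, from only 3 of 9 peaks (7.49 to 70.1%). For 2-call peaks it was 10.4% (12 of 115; 5.51 to 17.5%) at score 2, 6.88% (32 of 465) at score 3, 8.45% (70 of 828) at 4 to 5, 8.07% (31 of 384) at 6 to 9 and 7.61% (15 of 197; 4.32 to 12.3%) at 10 or more. The intervals of these 5 shares overlap.

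**Figure D2:**
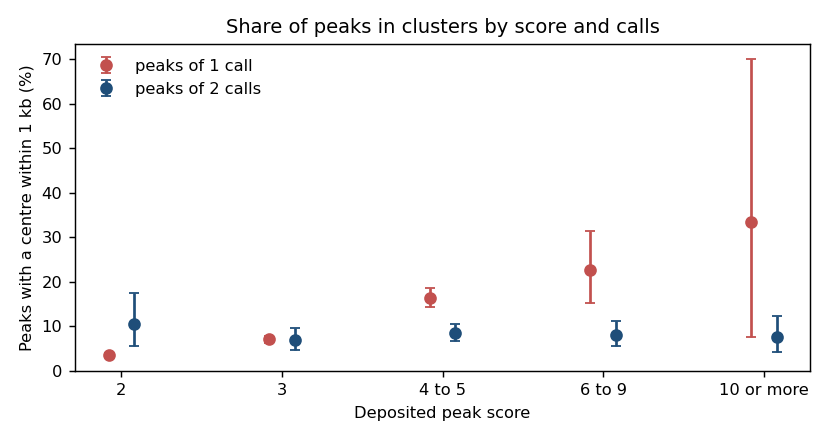
Percentage of peaks with another centre within 1 kb, by deposited score, for peaks of 1 call (red) and of 2 calls (blue), with exact 95% intervals as bars. The red points climb from 3.57% at score 2 to 22.6% at scores 6 to 9, and the last red point (33.3%) rests on 3 of 9 peaks. The blue points from score 3 upward stay between 6.88 and 8.45%.

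A larger share of clustered than of isolated peaks lay at the ends of protein-coding genes. Of the clustered peaks, 426 (41.2%; 38.2 to 44.3%) had a centre within 1 kb of an annotated end of a protein-coding gene, against 2884 isolated peaks (17.7%; 17.2 to 18.3%). Counted with the highest-scoring peak of each cluster alone, the clustered share was 41.2% as well. A coding start site lay within 1 kb of 380 clustered peaks (36.8%; 33.8 to 39.8%) and of 15.2% of isolated peaks. Start sites were known for 17492 of the 21779 coding genes, and for none on chromosome 18, so both of these shares are undercounts. Deep inside coding genes, over 1 kb from either end, were 22.6% of clustered and 28.0% of isolated peaks. Outside coding genes and over 1 kb from their ends were 36.2% of clustered and 54.2% of isolated peaks.

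Per cluster, 217 of 507 (42.8%; 38.5 to 47.2%) had at least 1 peak at a coding gene end. The share was 36.2% (31.2 to 41.3%) for pairs of 1-call peaks, 57.0% (46.7 to 66.9%) for mixed pairs and 79.2% (19 of 24; 57.9 to 92.9%) for pairs of 2-call peaks. Clusters at coding ends had a median higher score of 4, and the 290 clusters away from them a median of 3. Spacing was alike in both, with medians of 378 and 410 bp.

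Score and place moved together, so both groups were also set side by side within each score. At score 2, 10.8% of the clustered 1-call peaks (7.73 to 14.6%) and 4.39% of the isolated ones (3.98 to 4.83%) were at coding ends. At score 3 the shares were 51.6% (45.9 to 57.2%) and 22.8% (21.5 to 24.1%). At scores 4 to 5 they were 60.2% (52.8 to 67.3%) and 58.4% (55.2 to 61.6%), with intervals that overlap. At scores 6 to 9 they were 61.5% (16 of 26; 40.6 to 79.8%) and 48.3% (37.6 to 59.2%), again overlapping. At 10 or more, 0 of 3 clustered and 2 of 6 isolated 1-call peaks were at coding ends. Among 2-call peaks the clustered share was 33.3% (4 of 12; 9.93 to 65.1%) against 13.6% at score 2, 43.8% against 48.5% at score 3, 70.0% (57.9 to 80.4%) against 56.5% at scores 4 to 5, 64.5% (45.4 to 80.8%) against 51.8% at 6 to 9, and 73.3% (11 of 15; 44.9 to 92.2%) against 54.4% at 10 or more. Intervals of the clustered and isolated shares were apart only for 1-call peaks at scores 2 and 3. At scores 4 to 5 the 1-call shares themselves were close, with 186 clustered peaks. Clustered 1-call peaks at scores of 6 or more and clustered 2-call peaks were fewer, which leaves wide intervals.

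**Figure D3:**
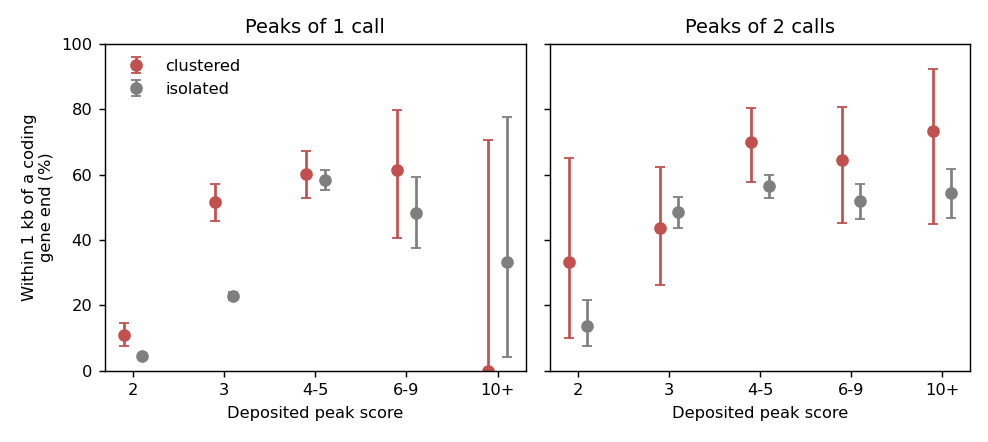
Percentage of clustered (red) and isolated (grey) peaks within 1 kb of a coding gene end, by deposited score, for peaks of 1 call on the left and of 2 calls on the right, with exact 95% intervals. At score 3 in 1-call peaks the clustered share of 51.6% stands above the isolated share of 22.8%, and at scores 4 to 5 both are near 60%.

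Where the RefSeq promoter table gives a start and strand, clusters could be placed around start sites. There were 192 clusters with a peak within 1 kb of a coding start. Of these, 88 (45.8%; 38.6 to 53.2%) had peaks on both sides of the start, 67 (34.9%) lay upstream and 37 (19.3%) lay downstream. Among the 84 pairs that straddled a start, the upstream peak scored higher in 23, the scores were equal in 39 and the downstream peak scored higher in 22, which is nearly the same count for either side. Start sites of a divergent pair of coding genes lay within 1 kb of 12 of the 192 clusters (6.25%; 3.27 to 10.7%). Pairs with a start missing from the promoter table are not counted. No such share was computed for isolated peaks, so this one cannot be read as high or low.

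Clustered peaks were spread more widely around start sites than isolated ones. Of peaks within 1 kb of a coding start, 197 of 380 clustered (51.8%; 46.7 to 57.0%) and 1689 of 2474 isolated (68.3%; 66.4 to 70.1%) were within 200 bp of it. The median distance was 183 bp in clustered and 114 bp in isolated peaks. The rule itself bears on this, since peaks of 1 cluster cannot all sit at the same base. The side of the start was similar, with 56.8% of clustered and 61.3% of isolated peaks upstream.

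**Figure D4:**
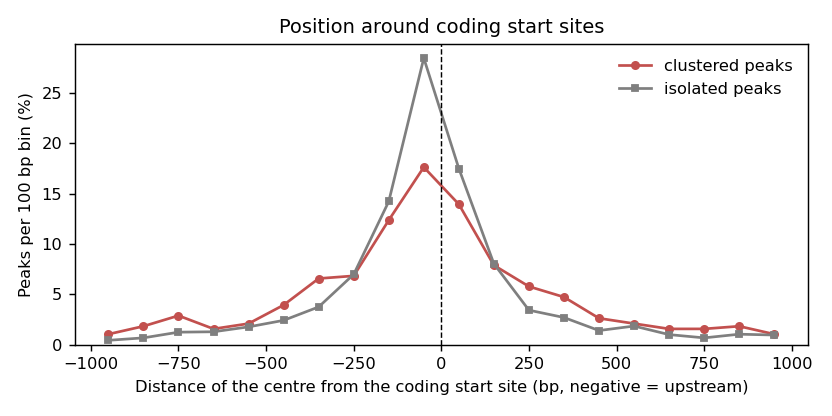
Percentage of peaks per 100 bp bin against distance from the nearest coding start site, with negative distances upstream, for the 380 clustered (red) and 2474 isolated (grey) peaks within 1 kb. Both curves peak just upstream of the start, and the red curve is lower there and higher beyond 300 bp on either side.

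Known HIF targets were looked up in a list of 50 hypoxia-response genes and a list of 30 glycolysis genes, which were written with earlier results of these data known. A clustered peak lay within 5 kb of either end of 6 of the 50 hypoxia genes (12%; 4.53 to 24.3%) and of 1 of the 30 glycolysis genes (3.33%; 0.0844 to 17.2%), while 1.55% of all 21779 protein-coding genes had one. Any peak at all lay there for 41 hypoxia genes (82.0%) and 20 glycolysis genes (66.7%), against 24.0% of all protein-coding genes. Among genes with any peak, 7 of 61 list genes (11.5%; 4.74 to 22.2%) and 338 of 5222 coding genes (6.47%; 5.82 to 7.17%) had a clustered one, with intervals that overlap. The 7 were Gapdh, Gbe1, Bnip3l, Bhlhe40, Stc2, Vhl and Vldlr.

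Gapdh, which encodes the glycolytic enzyme glyceraldehyde-3-phosphate dehydrogenase, had the only cluster of 3 peaks that all had 2 calls (chr6:125165294-125166665). Their scores were 18, 42 and 18. The central peak, with the sequence shown above, is 25.5 bp inside the gene from the start that the promoter table gives. A second peak is 386 bp farther inside, and the third is 866 bp from the central one on the upstream side, outside the gene and 146.5 bp from its annotated end. The middle peak was thus the highest of the 3 and the flanking peaks were equal.

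Gbe1 encodes the glycogen branching enzyme. Its pair of 2-call peaks (chr16:70313922-70314498) scored 7 at 61 bp and 20 at 496 bp inside the gene, so the higher peak was the one farther from the start. Bnip3l encodes a mitochondrial receptor for the removal of mitochondria by autophagy. Its pair (chr14:67008297-67009089), also of 2 calls each, scored 18 at 527 bp inside the gene end and 6 at 155 bp outside it. In both genes the lower peak sat closer to the gene end.

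Bhlhe40 encodes a transcriptional repressor of the circadian and hypoxia responses. Its pair (chr6:108659642-108660498) scored 5 at 900 bp and 10 at 190 bp outside the gene, inside the non-coding gene 0610040F04Rik. Stc2 encodes a secreted glycoprotein, stanniocalcin 2, and its pair (chr11:31370482-31371478) scored 5 at 471.5 bp and 8 at 1344.5 bp upstream. All 4 of these peaks had 2 calls.

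The pairs at Vhl and Vldlr were weaker, with 1 call for each peak. Vhl encodes the subunit of a ubiquitin ligase that recognises hydroxylated HIF1α. Its peaks (chr6:113623951-113624183) scored 5 at 7 bp and 3 at 139 bp inside the gene, only 132 bp apart. Vldlr encodes a receptor for very-low-density lipoprotein, and its peaks (chr19:27217520-27218320) scored 5 and 3 at 550 and 1250 bp downstream of a start, 700 bp apart.

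Most list genes with strong peaks had a single peak. With peaks inside the gene also counted, 67 list genes had a peak, and 60 of them had no cluster. The highest score per gene had a median of 13 and a maximum of 157 in these 60, against a median of 10 and a maximum of 42 in the 7 with a cluster. Exactly 1 peak was found at 47 genes. Among these were Narf (score 157), Eno1 (109), which encodes a glycolytic enolase, Ankrd37 (100), Pdk1 (59), the kinase that inhibits pyruvate dehydrogenase, Pgam1 (55), Egln3 (53), a prolyl hydroxylase that acts on HIF1α, and Kdm3a (50), a histone demethylase. A further 13 genes had at least 2 peaks that were too far apart to count. Their closest centres were 1940.5 bp apart at the lactate transporter gene Slc16a3, 2376 bp at Bnip3, 2758 bp at Pkm and 3168.5 bp at the glucose transporter gene Slc2a1. At Mxi1 and Rora they were 16246.5 and 160599 bp apart.

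Clusters outside the lists reached similar scores. Cited2 encodes a protein that competes with HIF1α for the coactivators CBP and p300 and is needed for heart development. Its pair (chr10:17722361-17723178) scored 11 and 12 with 2 calls each, at 814.5 and 103.5 bp upstream of the start. The nearer of these peaks has the CACGTG shown above. A cluster was also present at Ep300, the gene for p300, which was picked out after its values were seen: its 1-call peaks scored 6 and 4 on either side of the start, at 772 bp upstream and 146 bp downstream.

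Mif, which encodes a macrophage cytokine, had a mixed pair (chr10:75859544-75860326). Its 2-call peak scored 14 at 14.5 bp inside the gene and its 1-call peak scored 3 at 683 bp. Sap30, which encodes a subunit of the Sin3 histone deacetylase complex, had 2-call peaks scoring 10 and 6 (chr8:57487925-57488705) at 119 and 794 bp upstream, both inside the non-coding gene 2500002B13Rik. Bmt2, which encodes a sensor of S-adenosylmethionine, had 2-call peaks scoring 14 and 7 on the 2 sides of its start (chr6:13677546-13678314), 648.5 bp apart. In each of these 3 clusters the peaks had unequal scores, for which no replicate error is known.

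Bmpr1a, which encodes a type I receptor for bone morphogenetic proteins, had 2-call peaks scoring 6 and 9 (chr14:34502645-34503314). Morf4l1, a chromatin reader gene, had a 2-call peak of score 10 at 903.5 bp inside the gene and a 1-call peak of score 5 at 20 bp upstream. Ube2g1, a ubiquitin-conjugating enzyme gene, had scores of 5 and 16 at 603 and 1243 bp inside. Sirt6, which encodes an NAD-dependent deacylase, had scores of 3 and 9. Agbl5, which encodes a tubulin deglutamylase, had 2-call peaks of 5 and 8 beside tRNA genes, the nearest being n-TYgta9 at 114 bp from a centre.

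Some high-scoring clusters were not at a coding gene end. Lamb3, a laminin gene, held scores of 18 (2 calls) and 5 (1 call) deep in its body, 21.9 kb from the nearest end. Kmt5b, a histone H4 methyltransferase gene, held the only pair of 1-call peaks in which both scored at least 10, at 11 and 10, just 170 bp apart. This pair is 1184 bp from the gene end, and 657 and 827 bp downstream of an annotated start inside the gene. The highest scores of any cluster were 49 (1 call) and 55 (2 calls), 259 bp apart at chr17:36231250-36231611. This pair lies between genes, 24.1 kb from the nearest coding gene, Rpp21, and 975 bp from Gm18604.

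**Figure D5:**
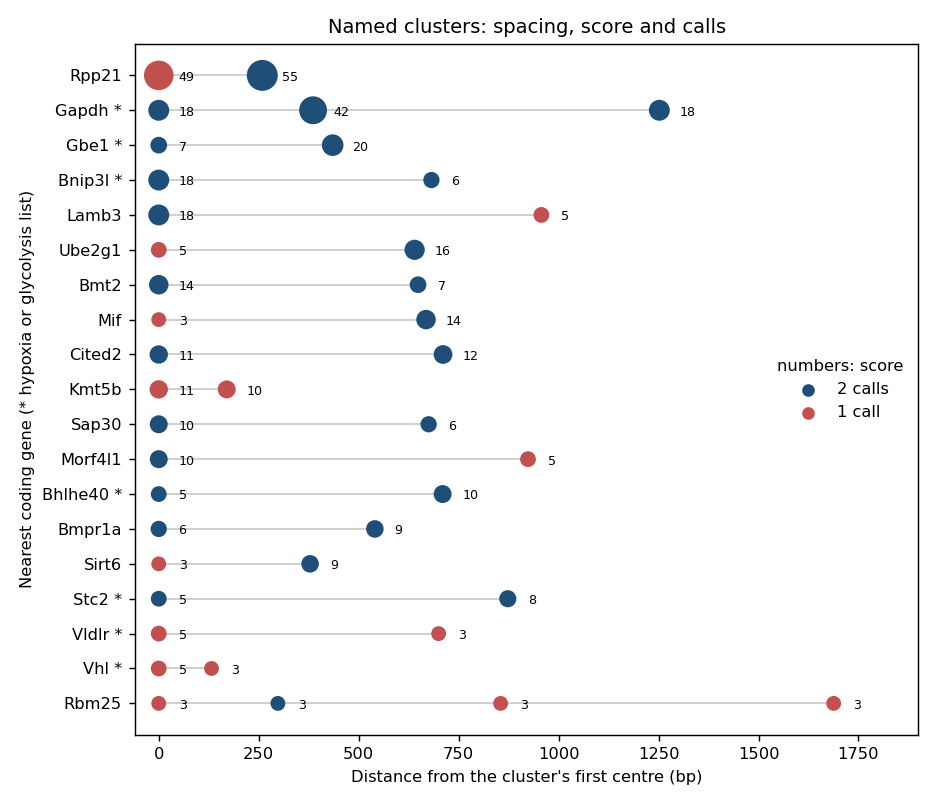
Peaks of 19 named clusters, each row labelled by its nearest coding gene (an asterisk marks a list gene), against distance in bp from the cluster's first centre. Blue points are peaks of 2 calls and red points peaks of 1 call, the number beside each is its score, and point size follows the score. Gapdh is the row with 3 blue points (18, 42 and 18) and Rbm25 the row with 4 points of score 3.

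The pairs of 2-call peaks included further housekeeping and signalling genes, at lower scores. Rac1, a small GTPase gene, had scores of 8 and 4, Akt1s1, a subunit gene of the mTORC1 complex, had 6 and 7, and Uspl1, a SUMO protease gene, had 6 and 7. Trmt112, an activator of methyltransferases, had 5 and 5 at 6 and 71 bp from gene ends, 343 bp apart. Of the 24 such pairs, the nearest coding end was over 1 kb away at Trim14, 5530400C23Rik, Cdh16, Cln6 and 4932411N23Rik.

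The clusters of 3 and 4 peaks were mixed in kind. The only cluster of 4 lay at Rbm25, a splicing regulator gene (chr12:83631704-83633492), where all 4 peaks scored 3 and 1 of them had 2 calls. Pcbp1, an RNA-binding protein gene, had scores of 7, 8 and 6 in the cluster it shares with 1600020E01Rik. The cluster over neighbouring ends of Atxn7l2 and Sypl2 had 6, 5 and 7. Hsp90ab1, a chaperone gene, had 4, 5 and 4. Some other clusters of 3 were far from any coding gene, with scores of 2 throughout at the one nearest to Lrrc4c (807 kb away on chromosome 2) and at the one nearest to Pcdh17 (1866 kb away on chromosome 14).

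No repeat annotation was used here, so repeat-rich loci were approached by gene symbols and position. A cluster was counted at a family-symbol locus when it lay on Y or within 50 kb of a gene with a symbol of a large family (Speer, vomeronasal, olfactory, defensin, Skint or Zfp9xx, among others) or with a numbered Gm symbol. A Gm number is a provisional gene name and no family by itself, so it can take in single-copy loci. By this measure 67 of 507 clusters (13.2%; 10.4 to 16.5%) and 140 clustered peaks (13.6%; 11.5 to 15.8%) were at such loci, against 6.66% of isolated peaks. Of the 67, 54 were within 50 kb of a gene with such a symbol, and the rest lay on Y, farther from one. Among the 54, numbered Gm genes were the nearest for 38, Zfp9xx genes for 8 and vomeronasal receptor (Vmn2r) genes for 5. Without the Gm symbols, a count added after the data were seen, 33 clusters (6.51%; 4.52 to 9.02%) and 6.68% of clustered peaks (5.23 to 8.38%) remained, against 3.46% of isolated peaks (3.18 to 3.75%). Chromosome Y still counts here, with 14 of the 33 clusters and 30 of the 69 clustered peaks. The shares at named families alone, without Y, were not computed. Of the 18 clusters of 3 or 4 peaks, 8 (44.4%; 21.5 to 69.2%) were at family-symbol loci, and 3 (16.7%; 3.58 to 41.4%) without the Gm symbols. Clusters on Y are in both of these counts.

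Many clusters at family-symbol loci had a neighbouring cluster. Another cluster was within 50 kb of 22 of the 67 (32.8%; 21.9 to 45.4%) and of 18 of the other 440 (4.09%; 2.44 to 6.39%). Without the Gm symbols this held for 17 of 33 (51.5%; 33.5 to 69.2%) and for 23 of the other 474 (4.85%; 3.10 to 7.19%). The 14 clusters on Y are among both the 67 and the 33, and 13 of them lie in 1 stretch of 580.5 kb. Clusters of such a stretch are neighbours of each other, while the intervals take them as independent. These shares were not computed without Y. A coding gene end was within 1 kb of 29.9% of the 67 (19.3 to 42.3%) and of 44.8% of the others (40.1 to 49.6%). At least 1 peak of 2 calls was present in 29.9% and 25.7%, with overlapping intervals. Leaving out family-symbol loci, 43.4% of clustered peaks and 17.4% of isolated peaks were at coding ends.

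Chromosome Y had the highest share of its peaks in clusters, 30 of 114 (26.3%; 18.5 to 35.4%). On the autosomes this share ran from 3.18% on chromosome 13 to 7.25% on chromosome 11, and on X it was 4.47%. The Y peaks made 14 clusters with 5 peaks of 2 calls, a median score of 3 and a highest score of 8, and 0 of them were near a coding end. Of the 14, 13 lay in 1 stretch of 580.5 kb (chrY:6463620-7044115), which held 67 peaks and the single coding gene Gm20830. The sex of the embryos is not given in the labels.

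The longest runs of clusters elsewhere were of both kinds. On chromosome 5, 7 clusters with 16 of 41 peaks lay over 705 kb (chr5:14973644-15678640) among Speer4d, Gm10354, Gm17019, Gm21083, Gm21149 and Gm21190, with a highest score of 5. On chromosome 4, 5 clusters lay over 710.6 kb (chr4:147094322-147804902) among 8 zinc finger genes, from Zfp534 to Zfp991, also with a highest score of 5. By contrast, 6 clusters over 544.9 kb on chromosome 10 (chr10:79854155-80399027) lay among 38 coding genes, and 4 clusters over 1028 kb on chromosome 19 among 45, with 0 clusters at a family-symbol locus in either. Among the clusters counted by symbol or by lying on Y, that of Sirt6 counts only through Gm10778 at 21.4 kb. A Y cluster 92.8 kb from Gm20830 reached a score of 8. Clusters nearest to Gm34296, Gm42346, Gm20783 and, on Y, Gm52481 each had a highest score of 7.

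The promoters under clustered and isolated peaks had similar values for the sequence features examined. RefSeq windows run from 250 bases before to 50 bases after a start. The 188 coding windows that a clustered peak overlaps had a median GC content of 62.0% and a median of 24 CpG dinucleotides. The 1941 windows under isolated peaks alone had 63.0% and 24, and the 19109 windows under no peak had 55.7% and 11. ACGTG or GCGTG, on either strand, was found in 75.5% (68.8 to 81.5%) of the windows with clustered peaks and 75.6% of those with isolated peaks alone. It was found in 49.3% of all 21238 coding windows. The motif ACGTG alone was in 38.3%, 39.3% and 20.9% in the same order. A run of 50 bases shared with a window elsewhere, a sign of copied sequence, was found in 0 of the 188 (up to 1.94% at the upper bound), in 0.412% of those with isolated peaks alone and in 9.56% of windows under no peak.

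Under the peaks themselves the shares were also close. Of the 124 clustered peaks that lie wholly inside a promoter window, 63 (50.8%; 41.7 to 59.9%) hold ACGTG or GCGTG, as do 579 of 1147 isolated ones (50.5%; 47.5 to 53.4%). The same length at the centre of all coding windows holds it in 23.1%. Shares differed more between peaks of 1 and 2 calls. The motif was in 20 of 31 clustered peaks of 2 calls (64.5%; 45.4 to 80.8%) and in 43 of 93 of 1 call (46.2%; 35.8 to 56.9%), with intervals that overlap. In isolated peaks the shares were 67.1% and 40.9%. Peaks of 2 calls have a larger median width than peaks of 1 call, and this contrast was not computed at equal width. These values hold for peaks at annotated starts, and the sequence under the other clustered peaks was not examined here.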

How the data were processed

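The submitters' processing notes name Bowtie2, HOMER and mm10, without versions. The authors merged the peaks of both HIF1α pulldowns against the input, comparisons named per the file headers, into 1 list whose deposited score is a whole number of unstated scale. How peaks were called and merged is not given in the sources used, and the depth is unknown. The number that ends a peak's name was read as its number of merged calls.

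Centres at most 1 kb apart on a chromosome were linked with Python 3.11.15 and pandas 2.3.3. Intervals came from SciPy 1.17.1. Genes and promoter windows are RefSeq GRCm38.p6: 21779 placed protein-coding genes without exon structure, and 27025 genes with a window. The linking code was tested on simulated positions. No test between groups was made.

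Members and gene lists were chosen with earlier results of these data known. Clusters were named if they held 4 or more peaks, were among the 15 with the highest score, the 10 with most 2-call peaks or the 5 highest-scoring at family-symbol loci, or lay at a list gene. Others named were chosen after their values were seen. Alternatives covered the linking distance, scores, calls, windows, gene sets, chromosome Y and the motif.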

Additional observations from a re-analysis of the deposited data

How the results depend on the processing

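The number of clustered peaks was 652 in 324 clusters with centres linked at 500 bp, 1749 in 827 clusters (the largest of 9 peaks) at 5 kb, 595 in 292 clusters from peaks of score 3 or more, and 53 in 26 clusters from peaks of 2 calls. It stayed within 1.5 times the reported count at 2 kb (1326), with edges in place of centres (1076) and without chromosome Y (1003). The share of clustered peaks with 2 calls was 11.7% at 500 bp and 23.0% among scores of 3 or more. The share scoring 4 or more was 27.3% at 5 kb. The share at coding gene ends was 34.7% and 28.5% with linking at 2 and 5 kb, 32.0% and 50.8% with windows of 500 bp and 5 kb, 45.7% with all annotated genes and 59.7% among scores of 3 or more. The isolated share was lower with linking at 2 and 5 kb (17.9 and 18.1%), with both windows (14.9 and 25.2%), with all genes (21.4%) and among scores of 3 or more (35.6%). List genes with a cluster were 3.75% at 500 bp, where all coding genes with one were 1.05%, and 10 of the 80 with a gene window of 50 kb, where 5.29% of all coding genes had one. Family-symbol loci held 7.30% and 24.3% of clusters with limits of 10 and 200 kb, and 6.51% without numbered Gm genes (added after seeing the data, with Y still counted). The motif share was 24.2% with ACGTG alone. No paired analysis was possible because the list gives no values per replicate. Without read counts, input signal, or a mark of which pulldown gave each call, no limit from depth or replicate spread could be computed.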

Other observations

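Other gene groups, taken by symbol after the values were seen, had clustered peaks within 5 kb as follows, beside 1.55% of all protein-coding genes with a clustered peak and 24.0% with any peak. Mitochondrial ribosomal protein genes had one at 5 of 78 (6.41%; 2.11 to 14.3%), namely Mrpl9, Mrpl11, Mrpl47, Mrps28 and Mrps36, and 42 of the 78 had any peak. Complex I subunit genes of the respiratory chain had one at 2 of 49 (Ndufa12 and Ndufb5) and any peak at 18. Ndufb5 shares its cluster with Mrpl47. Genes grouped by symbol with the translation initiation factors had one at 4 of 56 (7.14%) and any peak at 29. The 4 were Eif2ak1, Eif3e, Eif3h and Eif4g1, of which Eif2ak1 encodes a kinase of initiation factor eIF2 and not such a factor itself. These counts were 4 and 35 of 83 cytosolic ribosomal protein genes and 2 and 18 of 37 ubiquitin-conjugating enzyme genes. They were 2 and 20 of 32 nuclear ribonucleoprotein and SR splicing factor genes and 16 and 149 of 397 Zfp genes. Proteasome subunit genes had one at 0 of 51, with an upper bound of 6.98%, although 15 had a peak. Olfactory receptor genes, which form large families, had one at 2 of 1109 (0.180%) and any peak at 108. No group was compared with another by a test.

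Further pairs of 1-call peaks at gene starts were picked out after their values were seen. Vdac1, which encodes a channel of the outer mitochondrial membrane, had scores of 6 and 4 at 49 bp upstream and 61 bp downstream of its start. Ndufb5 had scores of 5 and 5 at 203 and 73 bp upstream, and H3f3a, a histone H3.3 gene, had 5 and 5 at 359 and 66 bp upstream.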
